A study of Homo sapiens with 6 samples.

Results

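The integrin subunits and laminin chains were examined in BT-549 cells, a human cell line established from a triple-negative breast cancer, after silencing of the transcription factor IRF1. Members were all symbols of the count table that begin with ITGA or ITGB followed by a subunit number or letter, or with LAMA, LAMB or LAMC followed by a chain number. This gave 38 of the 37887 listed symbols, of which 26 were integrin subunits (18 alpha and 8 beta) and 12 were laminin chains (5 alpha, 4 beta and 3 gamma). RNA-seq had been performed on 3 control and 3 shIRF1 samples.

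The samples labelled control received 0.1% DMSO as vehicle, and those labelled shIRF1 received 500 ng/ml doxycycline, which switches on a tetracycline-inducible IRF1 shRNA. The sample titles name a control shRNA, whereas the series text describes a single stable line with the inducible IRF1 shRNA in both groups, and the duration of treatment is not given in the labels. Doxycycline was given to shIRF1 samples and to no control sample, so drug effects and shRNA effects cannot be told apart. If the titles are right, the groups also differ in the shRNA vector they carry, which could not be told apart either. The 3 samples of a group are described as triplicate cultures, and p-values measure the spread between these samples, which may be partly technical.

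Integrins are receptors made of an alpha and a beta subunit that attach cells to the extracellular matrix and pass force and signals to the actin cytoskeleton. The alpha subunit largely sets the ligand, and ITGB1 is the common partner of most alpha subunits in adherent cells. Laminins are heterotrimers of an alpha, a beta and a gamma chain that form the sheet of the basement membrane, where they are bound by the integrins built on ITGA3, ITGA6 and ITGA7. In breast epithelium these laminins and their receptors separate the gland from the stroma, and BT-549 cells are a mesenchymal-like line that has lost most epithelial features.

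IRF1 was reduced in every shIRF1 sample. Its level was 45.3, 48.1 and 51.5 CPM (a gene's count relative to its library total, scaled by the TMM method) in control replicates 1 to 3 and 13.8, 14.9 and 14.6 CPM in shIRF1 replicates 1 to 3, which is 29.9% of control (log2 fold change -1.74 ± 0.06 SE, adjusted p = 4.53e-13). The total count per sample ranged from 55143808 in shIRF1 replicate 2 to 160436234, and 3 counts corresponded to 0.0182 to 0.0540 CPM, a floor that covers counting error only. Epithelial markers were scarce, with a summed level over 7 genes of 9.30 to 9.91 CPM in control and 4.05 to 4.54 CPM in shIRF1 samples, of which KRT18 (6.34 and 2.92 CPM) and KRT8 (1.52 and 0.441 CPM) held most (here and later, a pair of CPM values gives the control and then the shIRF1 mean). In that list 4 keratin genes were lower, CDH1 (0.676 and 0.673 CPM) and EPCAM (0.0714 and 0.110 CPM) did not pass and KRT19 was not tested. A list of 5 mesenchymal genes summed to 3160 to 3250 CPM in control and 2820 to 3040 CPM in shIRF1 samples, with VIM (918 and 625 CPM), FN1 and ZEB1 lower, SPARC (1200 and 1370 CPM) higher and CDH2 (240 and 245 CPM) not passed. The estrogen receptor gene ESR1 was at 0.0163 and 0.101 CPM, and a list of 6 leukocyte genes summed to 1.57 to 1.85 CPM in control and 2.53 to 3.22 CPM in shIRF1 samples, with CD14 at 1.09 and 2.22 CPM. In bulk RNA, fewer cells of a type and less RNA per cell cannot be told apart.

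Most of the integrin and laminin genes that BT-549 cells expressed were lower after IRF1 silencing. Of the 38 members, 37 had any count, 32 passed the filter on low counts and 6 did not. At an adjusted p below 0.05, 17 of the 32 tested members were lower, 3 were higher and 12 did not pass, beside 26.4% lower and 24.1% higher among all 18851 genes tested (50.5% in either direction). The median log2 fold change over the tested members was -0.28, and that over all genes was 0.00. Past a 2-fold change, 5 members were lower, among them ITGA3, ITGA5, ITGA6 and LAMA4, and 1 was higher (ITGB2), where 4.43% and 3.43% of all genes tested did so.

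The same counts were taken at a mean of at least 1 CPM. Of the 22 members at that level, 17 were lower, 2 were higher (ITGAV and ITGA10) and 3 did not pass (ITGB1, LAMB2 and LAMA2). Among all 13066 genes at that level, 34.2% were lower and 29.3% were higher (63.6% in either direction), and 4.06% were lower and 1.33% higher past 2-fold, where the members gave 5 and 0. The median log2 fold change was -0.50 for these members and -0.02 for these genes. The 3 control values did not overlap the 3 shIRF1 values for 18 of the 32 tested members, beside 56.8% of all genes tested, and for 17 of the 22 members at 1 CPM or more, beside 68.3% of genes at that level. Members have long transcripts, with a median length of 5443.5 bases over the tested members and 2733 bases over all tested genes. With a correction for length and base composition, 16 members were lower and 4 were higher, and 17 and 4 when the replicate block was added.

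**Figure D1:**
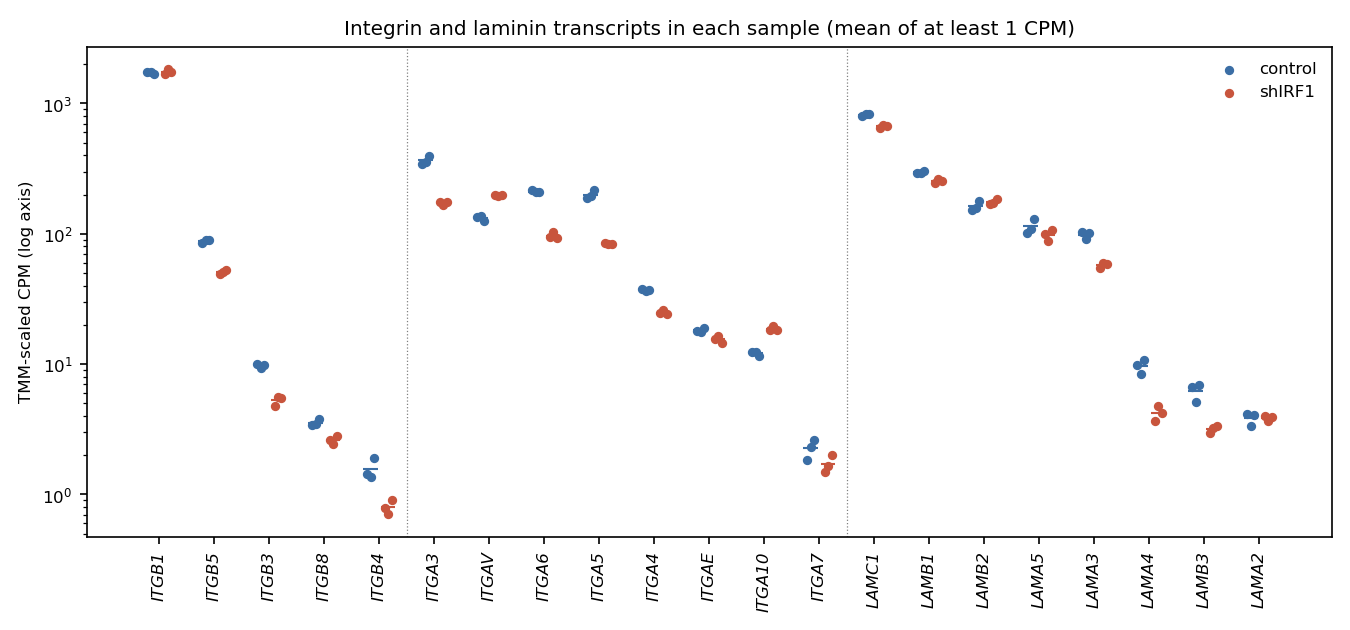
TMM-scaled CPM (log axis) of the members with a mean of at least 1 CPM that are described singly, in each of 3 control (blue) and 3 shIRF1 (red) samples, with a bar at each group mean and dotted lines between integrin beta subunits, integrin alpha subunits and laminin chains. ITGB1 overlaps between groups at 1670 to 1830 CPM, ITGA3, ITGA5 and ITGA6 sit lower in all shIRF1 samples, and ITGAV and ITGA10 sit higher.

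**Figure D2:**
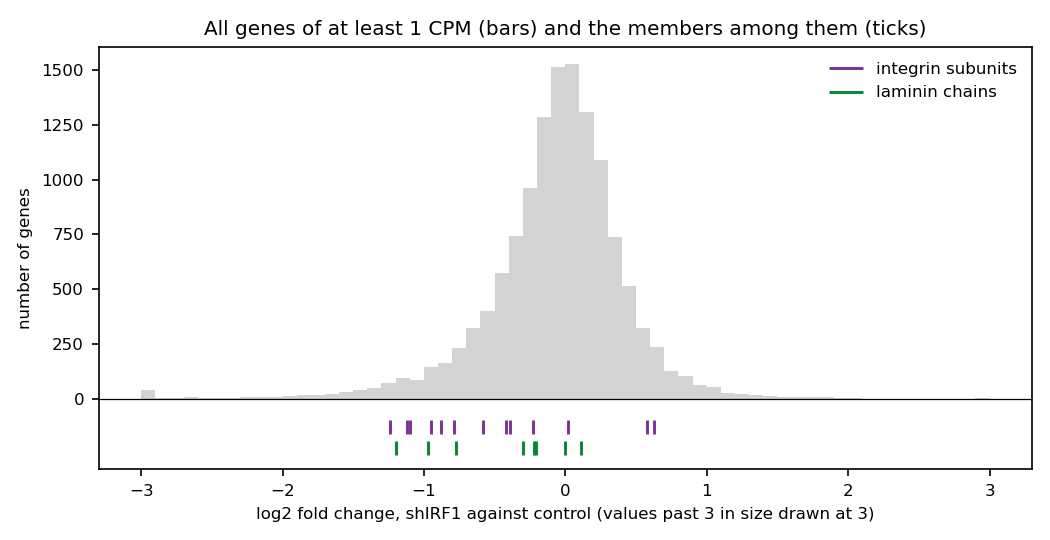
Histogram of log2 fold changes (shIRF1 against control) of all 13066 genes at a mean of 1 CPM or more, with ticks for the integrin and laminin genes among them that are described singly. The ticks lie mostly left of 0 (median over the 22 members at that level -0.50), while the histogram is centred at -0.02.

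Promoter windows give the letters near some transcription starts of the members, and regulatory DNA farther away was not examined. Windows of 300 bases, 250 before to 50 after a transcription start, were taken from RefSeq on GRCh38.p14 and were present for 26 of the 38 members (33 windows). Each was searched on both strands for an IRF element (GAAA, any 2 bases, GAAA), for TTCNNNGAA, a STAT site, for TGANTCA, an AP-1 site, and for GGGCGG, an SP1-type GC box. The IRF element was in 1 of 33 member windows (3.03%) beside 3.57% of all 35116 windows, and the STAT site was in 2 (6.06% beside 7.66%), those of ITGAE and LAMB2. The AP-1 site was in 3 (9.09% beside 7.71%), those of ITGA5, LAMA3 and LAMB3, and the GC box was in 19 (57.6% beside 45%). A match is a description of letters and not a site of binding, and a window with no match says nothing of the factor.

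The windows of the members at 1 CPM or more with a change past 2-fold are shown first, 1 per gene and as far as the table holds them, each 5' to 3' on the gene's strand with every match in capitals. ITGA5 lies at chr12:54419217-54419516 on the minus strand and holds an AP-1 site and a GC box in inverse orientation, ITGA6 at chr2:172427086-172427385 on the plus strand holds a GC box in the first of its 2 windows (the other, which overlaps it and is not shown, holds 3), and LAMA4 at chr6:112254518-112254817 on the minus strand holds none of the 4 motifs. ITGA3 has no window in the table.
ITGA5: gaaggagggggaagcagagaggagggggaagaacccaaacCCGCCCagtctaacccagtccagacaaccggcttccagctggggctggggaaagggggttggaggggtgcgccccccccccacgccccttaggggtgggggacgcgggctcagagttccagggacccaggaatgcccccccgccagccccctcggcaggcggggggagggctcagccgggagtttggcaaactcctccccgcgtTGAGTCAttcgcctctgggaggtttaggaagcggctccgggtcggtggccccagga
ITGA6: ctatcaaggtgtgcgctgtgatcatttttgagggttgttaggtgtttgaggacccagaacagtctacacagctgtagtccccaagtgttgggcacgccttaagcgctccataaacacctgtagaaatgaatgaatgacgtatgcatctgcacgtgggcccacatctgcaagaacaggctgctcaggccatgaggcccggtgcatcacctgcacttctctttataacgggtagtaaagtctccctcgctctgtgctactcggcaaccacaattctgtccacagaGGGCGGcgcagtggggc
LAMA4: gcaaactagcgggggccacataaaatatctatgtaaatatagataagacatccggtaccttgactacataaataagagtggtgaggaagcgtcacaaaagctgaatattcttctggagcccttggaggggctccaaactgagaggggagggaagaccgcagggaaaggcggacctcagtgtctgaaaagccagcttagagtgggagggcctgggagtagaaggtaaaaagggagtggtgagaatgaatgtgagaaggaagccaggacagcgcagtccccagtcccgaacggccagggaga

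A further 3 windows were chosen after their values were seen, because they are the other windows with an AP-1 site or an IRF element. LAMA3 lies at chr18:23872770-23873069 on the plus strand, at a transcription start inside the gene, and holds 2 AP-1 sites and a GC box. LAMB3 lies at chr1:209651325-209651624 on the minus strand with an AP-1 site and a GC box, and ITGB5 at chr3:124887635-124887934 on the minus strand, also at an internal start, with the IRF element and 2 GC boxes. Other windows of LAMB3 and ITGB5 lack these AP-1 and IRF letters.
LAMA3: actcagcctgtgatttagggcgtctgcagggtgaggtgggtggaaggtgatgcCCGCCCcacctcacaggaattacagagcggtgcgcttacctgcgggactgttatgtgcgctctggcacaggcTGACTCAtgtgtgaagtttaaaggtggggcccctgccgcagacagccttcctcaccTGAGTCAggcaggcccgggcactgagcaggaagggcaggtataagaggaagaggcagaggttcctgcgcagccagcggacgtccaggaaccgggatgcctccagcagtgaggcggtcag
LAMB3: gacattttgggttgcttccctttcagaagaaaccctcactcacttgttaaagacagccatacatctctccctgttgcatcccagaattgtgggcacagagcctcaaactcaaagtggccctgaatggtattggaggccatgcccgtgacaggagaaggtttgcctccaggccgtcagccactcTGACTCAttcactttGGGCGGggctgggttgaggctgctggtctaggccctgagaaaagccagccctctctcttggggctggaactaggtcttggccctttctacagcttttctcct
ITGB5: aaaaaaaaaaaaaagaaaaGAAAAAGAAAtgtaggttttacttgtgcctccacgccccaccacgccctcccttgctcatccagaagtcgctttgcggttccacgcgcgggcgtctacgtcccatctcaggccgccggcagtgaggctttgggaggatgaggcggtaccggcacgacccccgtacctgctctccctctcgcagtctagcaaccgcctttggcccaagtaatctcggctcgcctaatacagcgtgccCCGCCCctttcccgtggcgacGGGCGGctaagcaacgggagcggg

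Among the beta subunits, ITGB1 did not pass the test, while ITGB3, ITGB4, ITGB5 and ITGB8 were lower. ITGB1, the shared beta subunit, was at 1750, 1750 and 1680 CPM in control and 1670, 1830 and 1750 CPM in shIRF1 samples. The groups overlapped, and the log2 fold change was 0.02 ± 0.05 (95% interval -0.08 to 0.12, adjusted p = 0.766). ITGB5, which joins ITGAV in a vitronectin receptor, was at 84.4, 89.2 and 90 CPM in control and 49.5, 50.8 and 52.3 CPM in shIRF1 samples. All shIRF1 values lay below all control values (log2 fold change -0.79 ± 0.04, adjusted p = 1.34e-10).

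ITGB3, which joins ITGAV or the platelet subunit ITGA2B, was at 10, 9.38 and 9.91 CPM in control and 4.80, 5.64 and 5.52 CPM in shIRF1 samples. It was lower in every shIRF1 sample (log2 fold change -0.88 ± 0.08, adjusted p = 9.52e-08), but 51.6% of its exonic bases also belong to AC068234.1 on the same strand, so reads could be split between both and the value is uncertain. ITGB4, the partner of ITGA6 in hemidesmosomes, was at 1.44, 1.37 and 1.90 CPM in control and 0.794, 0.703 and 0.899 CPM in shIRF1 samples. It was lower without overlap (log2 fold change -0.95 ± 0.18, adjusted p = 2.07e-04). ITGB8, which with ITGAV binds latent TGF-beta, was at 3.40, 3.45 and 3.78 CPM in control and 2.60, 2.43 and 2.83 CPM in shIRF1 samples, again without overlap (log2 fold change -0.42 ± 0.10, adjusted p = 0.0026).

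ITGB2, the beta subunit of leukocyte integrins, was the member that rose past 2-fold, at a level below 1 CPM. It was at 0.446, 0.269 and 0.288 CPM in control and 0.675, 0.540 and 0.954 CPM in shIRF1 samples, with no overlap (log2 fold change 1.16 ± 0.28, adjusted p = 0.00193), and without shIRF1 replicate 3 the change was 0.88 and no longer past 2-fold. Its leukocyte alpha partners did not pass or were not tested, with ITGAL at 0.103 and 0.0834 CPM, ITGAM at 0.178 and 0.190 CPM, ITGAX at 0.00541 and 0.0374 CPM and ITGAD without a count. Over the leukocyte markers, PTPRC was at 0.526 and 0.481 CPM while CD14 rose (log2 fold change 1.0 ± 0.14, adjusted p = 1.43e-05), and the part of such genes in the ITGB2 result was not tested. The transcript ITGB2-AS1 on the other strand held 21.1% as many counts as ITGB2 and was at 0.110 CPM in both groups. ITGB7, with 51.4% of its exonic bases shared with ZNF740 on the other strand, did not pass (0.258 and 0.207 CPM), and ITGB6 was below the filter at up to 0.0547 CPM.

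The alpha subunits that bind the RGD motif of fibronectin and vitronectin moved in opposite directions. ITGA5, the alpha subunit of the main fibronectin receptor, was at 187, 196 and 215 CPM in control and 84.5, 84.1 and 84.2 CPM in shIRF1 samples. It fell in all 3 shIRF1 samples to 42.3% of control (log2 fold change -1.24 ± 0.05, adjusted p = 1.86e-12). ITGAV, the alpha subunit of the vitronectin receptors, was at 134, 137 and 126 CPM in control and 197, 196 and 199 CPM in shIRF1 samples. It rose in all 3 shIRF1 samples (log2 fold change 0.58 ± 0.04, adjusted p = 5.50e-09). The ratio of ITGAV to ITGA5, per kb of transcript, was 0.454, 0.442 and 0.371 in control and 1.47, 1.47 and 1.5 in shIRF1 samples, so ITGA5 was the more abundant of the pair in every control sample and ITGAV in every shIRF1 sample. ITGA2B, the platelet subunit, did not pass (0.646 and 0.456 CPM), and ITGA8 was below the filter.

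Among the collagen receptors, ITGA10 alone exceeded 1 CPM. It was at 12.3, 12.3 and 11.6 CPM in control and 18.2, 19.5 and 18.2 CPM in shIRF1 samples, higher without overlap (log2 fold change 0.63 ± 0.07, adjusted p = 3.69e-07). ITGA1, ITGA2 and ITGA11, which bind collagens with different preferences, had group means from 0.230 to 0.891 CPM, overlapping groups and log2 fold changes of 0.53 ± 0.35, 0.10 ± 0.24 and 0.23 ± 0.20 that did not pass. Their 95% intervals ran from -0.21 to 1.27, from -0.41 to 0.62 and from -0.19 to 0.64.

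The laminin receptors ITGA3 and ITGA6 fell more than 2-fold. ITGA3, the most abundant alpha subunit per kb in both groups, was at 345, 358 and 396 CPM in control and 175, 165 and 174 CPM in shIRF1 samples. Every shIRF1 value lay far below the lowest control value (log2 fold change -1.10 ± 0.05, adjusted p = 1.34e-11). ITGA6, which binds laminins with ITGB1 or ITGB4, was at 215, 210 and 208 CPM in control and 94.6, 104 and 92.3 CPM in shIRF1 samples. The groups did not overlap, and the shIRF1 mean was 46.0% of control (log2 fold change -1.12 ± 0.05, adjusted p = 3.69e-12). ITGA7, the laminin receptor of muscle, was at 1.85, 2.33 and 2.62 CPM in control and 1.48, 1.66 and 2.02 CPM in shIRF1 samples. These overlapped (log2 fold change -0.39 ± 0.15, adjusted p = 0.0427), and the call was kept in 7 of 18 alternatives and lost without control replicate 2 (-0.37), control replicate 3 (-0.27), shIRF1 replicate 1 (-0.28) or shIRF1 replicate 2 (-0.36).

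ITGA4, which binds VCAM1 and fibronectin and is best known from leukocytes, was at 37.8, 36.6 and 37.0 CPM in control and 24.5, 25.8 and 24.3 CPM in shIRF1 samples. It was lower without overlap (log2 fold change -0.58 ± 0.05, adjusted p = 8.02e-08). ITGA4 lies between ITGA6 and ITGAV on the plus strand of chromosome 2 (GENCODE 29, GRCh38), ITGA6 starting at 172427354, ITGA4 at 181457202 and ITGAV at 186590065, and ITGA4 and ITGA6 were lower while ITGAV was higher. ITGA9, a tenascin receptor, did not pass (0.254 and 0.203 CPM), and ITGA9-AS1 on the other strand held 389% as many counts. ITGAE, the subunit of the E-cadherin-binding integrin of intraepithelial lymphocytes, was at 18.1, 17.5 and 18.9 CPM in control and 15.5, 16.4 and 14.5 CPM in shIRF1 samples (log2 fold change -0.23 ± 0.07, adjusted p = 0.00828), a small difference without overlap. Its partner ITGB7 was at 0.258 and 0.207 CPM.

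**Figure D3:**
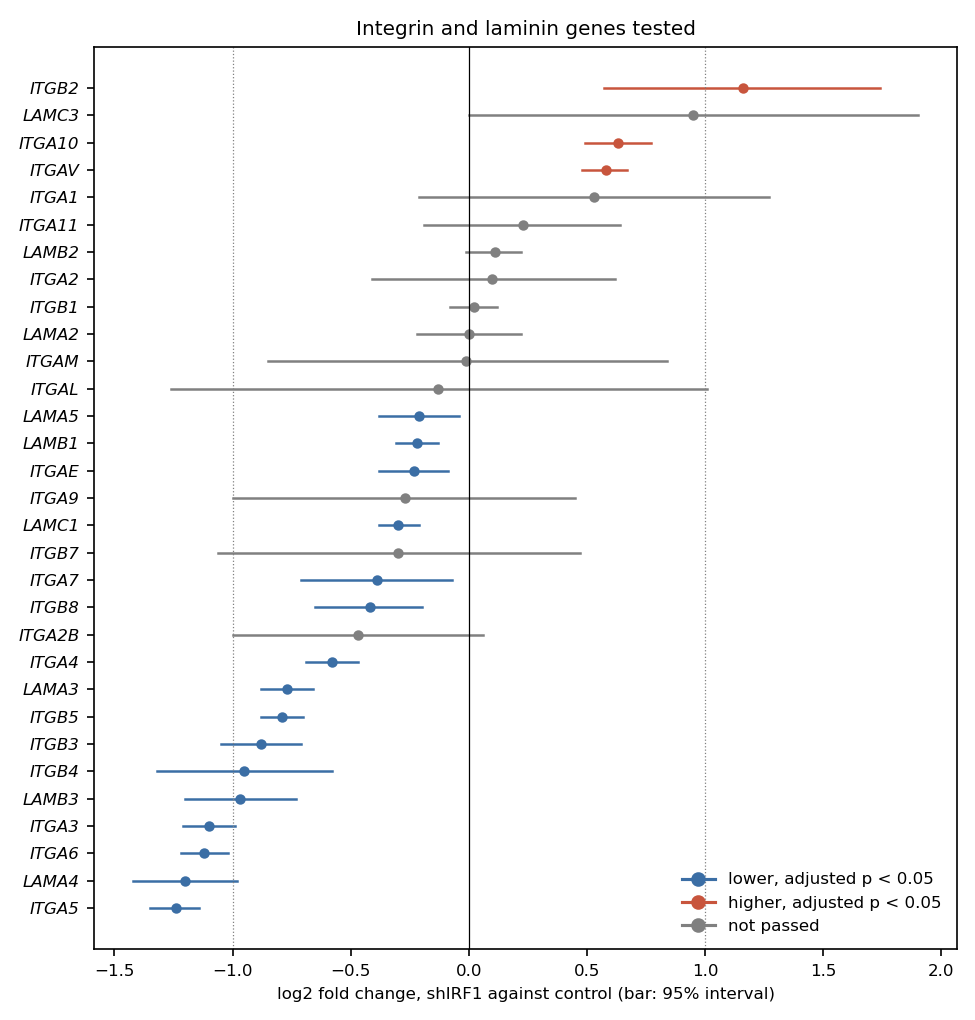
Log2 fold change (shIRF1 against control) of the tested members reported singly or by range, with 95% intervals, coloured by call at an adjusted p below 0.05, with dotted lines at a 2-fold change. ITGA5, LAMA4, ITGA6 and ITGA3 lie past 2-fold on the lower side, ITGB2 on the higher side, and ITGB1 and LAMA2 lie at 0.02 and 0.00.

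Summed per kb of transcript, the alpha subunits were lower in shIRF1 samples, while ITGB1 overlapped between groups. The alpha subunits that pair with ITGB1 summed to 182, 186 and 196 CPM per kb in control and 110, 110 and 109 CPM per kb in shIRF1 samples. ITGB1 was at 463, 463 and 443 CPM per kb in control and 442, 484 and 462 CPM per kb in shIRF1 samples, so it exceeded the sum of its partners in all 6 samples. The ratio of that alpha sum to ITGB1 was 0.393, 0.402 and 0.443 in control and 0.248, 0.227 and 0.237 in shIRF1 samples, with no overlap. A total of 54 sums, ratios and shares were compared by a two-sided exact permutation test, in which 3 against 3 samples cannot go below p = 0.1 (0.135 after Benjamini-Hochberg adjustment), and 40 reached that smallest value, this ratio and that of ITGAV to ITGA5 included.

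The order of the alpha subunits also differed. Per kb in control samples the order was ITGA3 (75.0 CPM per kb), ITGA5 (44.9), ITGA6 (37.5), ITGAV (18.9), ITGA4 (8.86), ITGAE (4.70) and ITGA10 (2.28), and in shIRF1 samples it was ITGA3 (35.0), ITGAV (28.1), ITGA5 (19.0), ITGA6 (17.2), ITGA4 (5.93), ITGAE (4.01) and ITGA10 (3.54). In shares of all alpha subunits per kb, neighbours in either order did not overlap between samples. ITGAV made up 9.78% ± 0.752 of the alpha subunits in control and 24.7% ± 0.302 in shIRF1 samples (SD, n = 3). The share of ITGA3 was 38.8% ± 1.28 and 30.8% ± 1.02, that of ITGA5 23.2% ± 0.749 and 16.7% ± 0.0739, and that of ITGA6 19.4% ± 1.03 and 15.2% ± 0.890. Against its own beta partners, ITGAV per kb was 0.939 and 2.42 times ITGB5, and 7.73 and 21.2 times ITGB3, in control and shIRF1 samples. The size of the ITGB3 ratios is uncertain, because 51.6% of the exonic bases of ITGB3 are shared with AC068234.1. ITGA6 per kb was 145 and 130 times ITGB4, with overlapping groups (exact permutation p = 0.5).

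**Figure D4:**
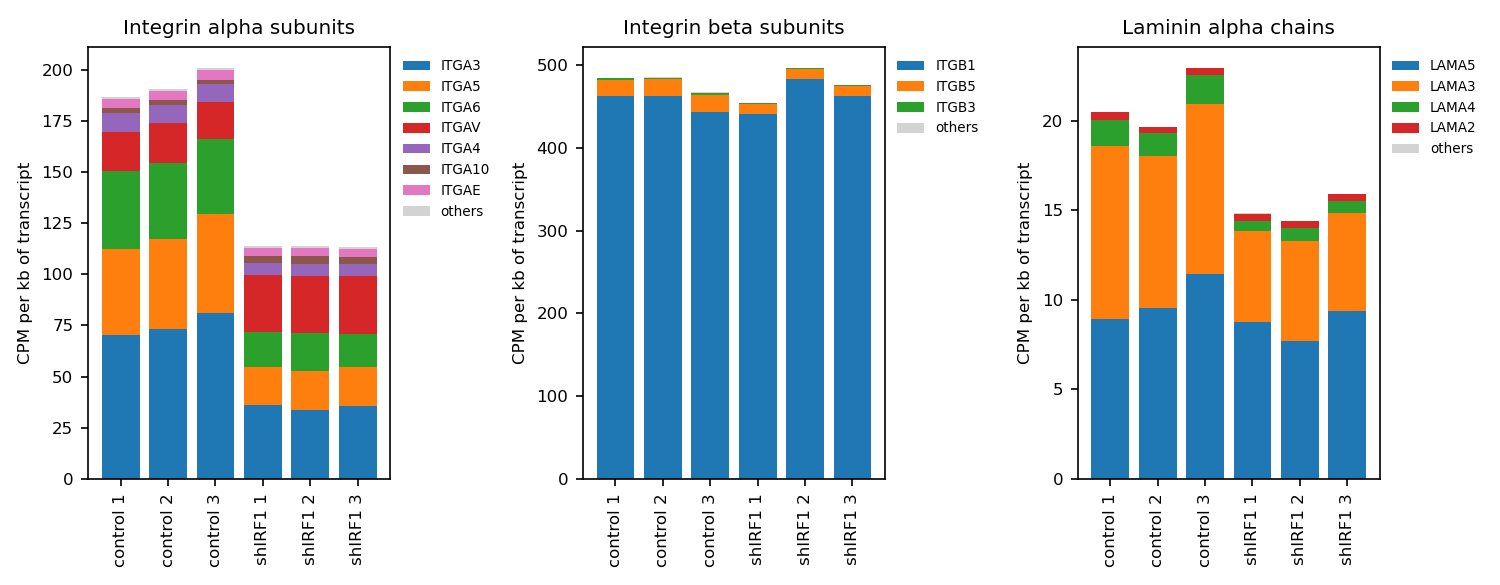
Stacked bars of CPM per kb of transcript for integrin alpha subunits, integrin beta subunits and laminin alpha chains in each of the 6 samples. The alpha subunits are lower in total in shIRF1 samples with a wider ITGAV band (24.7% against 9.78%), ITGB1 fills 95.1% and 97.1% of the beta bars, and the LAMA3 and LAMA4 bands are narrower in shIRF1 samples.

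Among the laminin alpha chains, LAMA3 and LAMA4 fell. LAMA3, the chain of the epithelial laminin that anchors hemidesmosomes, was at 103, 90.7 and 101 CPM in control and 54.4, 59.8 and 58.6 CPM in shIRF1 samples. It was lower in every shIRF1 sample (log2 fold change -0.77 ± 0.05, adjusted p = 1.77e-09). LAMA4, a chain of vessel and mesenchymal basement membranes, was at 9.81, 8.45 and 10.7 CPM in control and 3.67, 4.81 and 4.25 CPM in shIRF1 samples. Its groups did not overlap, and the shIRF1 mean was 44.0% of control (log2 fold change -1.20 ± 0.10, adjusted p = 4.05e-08).

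LAMA5, the most widespread alpha chain of adult basement membranes, was at 102, 109 and 131 CPM in control and 100, 87.9 and 107 CPM in shIRF1 samples. The groups overlapped, and the small difference (log2 fold change -0.21 ± 0.08, adjusted p = 0.0334) was called in 10 of 18 alternatives and lost without control replicate 3 (-0.09), shIRF1 replicate 1 (-0.22) or shIRF1 replicate 2 (-0.13). LAMA2, the chain of muscle and nerve laminins, was at 4.15, 3.38 and 4.08 CPM in control and 4.02, 3.64 and 3.91 CPM in shIRF1 samples. It did not pass (log2 fold change 0.00 ± 0.10, 95% interval -0.22 to 0.22), and LAMA1, the embryonic chain, was below the filter. Per kb, LAMA3 held 43.9% ± 3.05 of the laminin alpha chains in control and 36.0% ± 2.57 in shIRF1 samples, LAMA4 held 6.99% ± 0.383 and 4.32% ± 0.690, and LAMA5 held 47.2% ± 3.39 and 57.1% ± 3.21 (SD, n = 3). The length used for LAMA3 was that of its longest transcript, 10661 bases. Which LAMA3 transcript the cells made was not tested, and a shorter one would raise its share.

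Among the beta and gamma chains, LAMB1, LAMB3 and LAMC1 were lower, and the scarce chain LAMB3 had a larger fold change than LAMB1. LAMB1, a broadly used beta chain, was at 291, 293 and 302 CPM in control and 246, 261 and 253 CPM in shIRF1 samples (log2 fold change -0.22 ± 0.04, adjusted p = 2.50e-04), lower without overlap. LAMB2, which replaces LAMB1 in synaptic and kidney basement membranes, was at 152, 158 and 177 CPM in control and 169, 171 and 184 CPM in shIRF1 samples. It overlapped and did not pass (log2 fold change 0.11 ± 0.05, adjusted p = 0.112), though it was called higher in 6 of 18 alternatives, among them that without control replicate 3 (0.18). LAMB3, which joins LAMA3 in the epithelial laminin, was at 6.72, 5.12 and 6.86 CPM in control and 2.98, 3.21 and 3.38 CPM in shIRF1 samples. It was lower without overlap (log2 fold change -0.97 ± 0.11, adjusted p = 1.26e-06), and LAMB4 was below the filter.

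LAMC1, the gamma chain of most laminins, was at 806, 837 and 823 CPM in control and 650, 685 and 676 CPM in shIRF1 samples. It was lower without overlap at 81.5% of control (log2 fold change -0.30 ± 0.04, adjusted p = 1.52e-05). LAMC3 did not pass at 0.158 and 0.283 CPM (log2 fold change 0.95 ± 0.45, adjusted p = 0.0924), though it was called higher, past 2-fold, without control replicate 1 or shIRF1 replicate 2.

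The per kb ratio of LAMB1 to LAMB3 was 32.3, 42.8 and 32.9 in control and 61.6, 60.9 and 55.9 in shIRF1 samples. LAMA3 and LAMB3 were lower in shIRF1 samples, as were the laminin receptor subunits ITGA3, ITGA6 and ITGB4. LAMA4, a chain of vessel and mesenchymal basement membranes, fell more than LAMA3 (log2 fold changes -1.20 and -0.77). The epithelial keratins KRT5 (0.270 and 0.0242 CPM), KRT14 (0.765 and 0.0773 CPM), KRT8 (1.52 and 0.441 CPM) and KRT18 (6.34 and 2.92 CPM) were lower in the same samples. KRT5 had only 0, 2 and 6 counts in shIRF1 replicates 1 to 3. CDH1 (0.676 and 0.673 CPM) and EPCAM (0.0714 and 0.110 CPM) did not pass, and KRT19 was not tested. The part of any epithelial subpopulation in the laminin and receptor values was not tested.

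The genes around these receptors were taken as 4 lists with 107 listed genes, of which 99 were tested. Over all 4, 50 were lower (50.5%), 15 were higher (15.2%) and 34 did not pass, beside 26.4% lower and 24.1% higher among all genes tested. Of the 107 listed genes, 86 were at a mean of 1 CPM or more, where 34.2% of all genes were lower and 29.3% higher. Partner shares, here and in each list, are over all tested genes, those below 1 CPM included. They are therefore not for the same range of levels as the shares at 1 CPM or more. The median log2 fold change over the 99 tested genes was -0.21. A bare value with ± is a log2 fold change with its SE for a gene that passed. Among focal adhesion adaptors and kinases, 16 of 33 tested genes were lower (48.5%) and 2 were higher (6.06%). The same 26.4% and 24.1% of all genes tested, and 34.2% and 29.3% of genes at 1 CPM or more, did so. Those 2 were PTK2, the focal adhesion kinase, with 202, 200 and 205 CPM in control and 226, 246 and 230 CPM in shIRF1 samples (log2 fold change 0.21 ± 0.04, adjusted p = 5.52e-04), and TLN1, the talin that activates integrins (0.16 ± 0.04, adjusted p = 0.00661). The largest decreases were in KANK1, a talin-binding adaptor (-1.15 ± 0.05), FERMT1, the epithelial kindlin (-1.02 ± 0.07), and TGFB1I1, a paxillin relative (-0.81 ± 0.06). The core links VCL and FLNA did not pass, at 331 and 327 CPM and at 2840 and 2900 CPM.

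Among integrin ligands other than laminins and collagens, 14 of 24 tested genes were lower (58.3%) and 2 were higher (8.33%). These shares were 26.4% and 24.1% for all genes tested, and 34.2% and 29.3% for genes at 1 CPM or more. TGFBI, a secreted matrix protein that binds integrins, was at 367, 395 and 379 CPM in control and 92.2, 100 and 107 CPM in shIRF1 samples. This was a decrease in every shIRF1 sample (log2 fold change -1.93 ± 0.05, adjusted p = 2.18e-14). NRROS (-1.76 ± 0.13) and LRRC32 (-1.42 ± 0.14), which hold latent TGF-beta at the cell surface, were also lower, as was TGFB1 (-1.09 ± 0.07), the cytokine that ITGAV integrins release from its latent form. FN1, the ligand of the ITGA5 receptor, was at 761 and 601 CPM (-0.34 ± 0.04). Those higher were EDIL3, a ligand of ITGAV integrins, with 101, 102 and 105 CPM in control and 160, 171 and 181 CPM in shIRF1 samples (0.73 ± 0.05, adjusted p = 9.88e-10), and CCN1, a matricellular ligand (0.22 ± 0.05). TGFB1 and FN1 were named after their values were seen.

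Among basement membrane and laminin partners, 9 of 23 tested genes were lower (39.1%) and 7 were higher (30.4%). These shares were 26.4% and 24.1% for all genes tested, and nearer to them were the 34.2% and 29.3% for genes at 1 CPM or more. The heparan sulfate carriers SDC1 (119, 122 and 129 CPM in control and 53.0, 49.7 and 50.1 CPM in shIRF1 samples, log2 fold change -1.28 ± 0.05, adjusted p = 4.53e-13) and AGRN (-0.66 ± 0.07) were lower, as was NID2, a nidogen that links laminin to collagen (-0.64 ± 0.12). SDC4, the syndecan of focal adhesions, was higher (201, 211 and 222 CPM in control and 330, 308 and 315 CPM in shIRF1 samples, 0.59 ± 0.05, adjusted p = 1.09e-08). COL7A1, the collagen of anchoring fibrils (0.60 ± 0.10), and POMT1, which starts the O-mannose glycans of dystroglycan (0.57 ± 0.04), were also higher. DAG1, which encodes dystroglycan, the main laminin receptor outside the integrin family, was at 382 and 448 CPM (0.23 ± 0.04, adjusted p = 1.93e-04), and was named after its value was seen.

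Among lateral partners and trafficking genes, 11 of 19 tested genes were lower (57.9%) and 4 were higher (21.1%). These shares were 26.4% and 24.1% for all genes tested, and 34.2% and 29.3% for genes at 1 CPM or more. CD82, a tetraspanin that associates with laminin-binding integrins, was at 23.8, 27.5 and 25.7 CPM in control and 69.5, 60.9 and 66.8 CPM in shIRF1 samples. It was the one gene of the 4 lists that rose past 2-fold (log2 fold change 1.36 ± 0.06, adjusted p = 7.18e-12). The tetraspanin CD9 was lower (111, 120 and 125 CPM in control and 61.6, 64.1 and 60.3 CPM in shIRF1 samples, -0.93 ± 0.05, adjusted p = 5.68e-11), whereas CD151, the tetraspanin partner of ITGA3, did not pass at 119 and 118 CPM. CAV1, the caveola protein (-0.83 ± 0.04), and EMP2, a tetraspan protein (-0.62 ± 0.08), were lower. PTPN2, a phosphatase (0.52 ± 0.05), and DAB2, an adaptor for integrin endocytosis (0.23 ± 0.04), were higher.

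**Figure D5:**
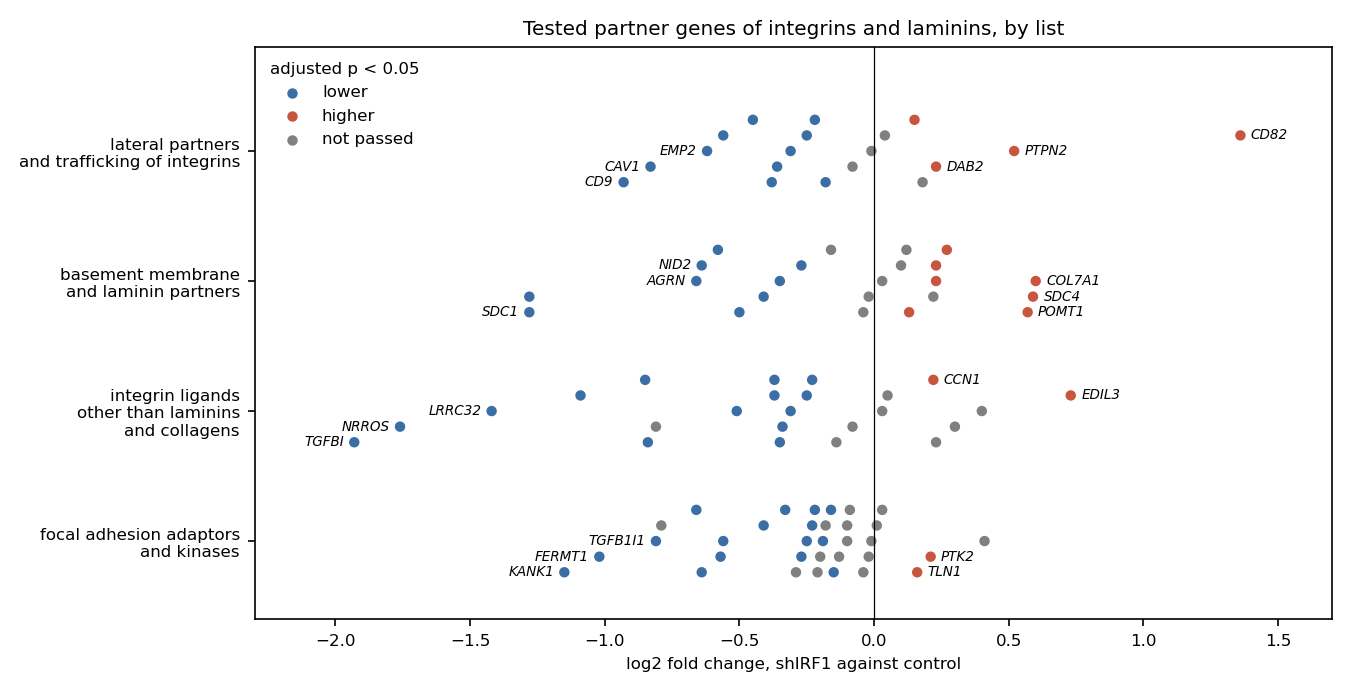
Log2 fold change (shIRF1 against control) of the 99 tested genes in 4 lists of integrin and laminin partners, one point per gene, coloured by call at an adjusted p below 0.05. TGFBI (-1.93), NRROS (-1.76) and LRRC32 (-1.42) lie farthest left, and CD82 (1.36) and EDIL3 (0.73) farthest right.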

How the data were processed

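RNA-seq counts of 3 control and 3 shIRF1 samples of BT-549 cells were analysed. Per the submitters' processing notes, CASAVA 1.8.2, STAR 2.7.9a, featureCounts and DESeq2 1.24.0 were used with build GRCh38.p7, and libraries were made with a stranded mRNA kit. The annotation release and the strand setting of counting are not given in the sources used here, so values of genes whose exons overlap others are uncertain. What the authors deposited are unnormalized counts listed by gene symbol. Between 72.1% and 75.2% of low counts were even, so the mates of a pair appear to have been counted separately.

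The quasi-likelihood test of edgeR 4.0.16 (under R 4.3.3) was applied to the counts after TMM scaling. Low genes were removed by filterByExpr (minimum count 10), and p-values were adjusted by Benjamini-Hochberg over the 18851 genes left. No covariate entered. CPM is scaled by TMM, and CPM per kb is divided by the length of the longest GENCODE 29 transcript. Per kb values are too low for a gene expressed mainly as a shorter transcript. Log2 fold changes are given with SE. The fit was tested on simulated data first. It recovered 66% of 100 genes changed 1.5-fold and 79% of 100 genes changed 2-fold, with 12 false calls in a run of 18851 genes. A gene that did not pass may therefore still differ. Alternatives were other scalings, DESeq2 1.42.0, other filters, leaving out each replicate, the replicate block, a threshold of 0.01, halved counts, thinning to the smallest library, and a GC and length correction (mgcv 1.9.3).

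Members and lists were chosen with earlier results of these data known. Members at a mean of at least 1 CPM were described singly, except 1 that is counted but not reported here, those below by call or range. In each partner list, up to 3 genes with the largest change in each direction, past the threshold and at a mean of at least 1 CPM, were named. TGFB1, FN1 and DAG1, and VCL, FLNA and CD151, which did not pass, were named outside this rule. Promoter windows came from RefSeq (GRCh38.p14).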

Additional observations from a re-analysis of the deposited data

How the results depend on the processing

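Across the alternatives, 15 to 18 members were lower and 2 to 4 higher, and 5 to 7 were lower past 2-fold, ITGA3, ITGA5, ITGA6 and LAMA4 in every alternative and ITGB4 or LAMB3 in some. Partner genes numbered 48 to 50 lower and 13 to 17 higher. The count of members higher past 2-fold (1) was 0 when genes needed 1 CPM in 3 or more samples, 0 with libraries thinned to the smallest total and 2 with halved counts, and ranged from 0 to 2 when a sample was left out. It rests on ITGB2 and LAMC3, both below 1 CPM, and LAMC3 was also called higher with no filter. LAMA2 (main value 0.00 on the log2 scale) was -0.000927 with no filter, -0.00628 with the replicate block, -0.00465 with the GC and length correction and the replicate block, and -0.0857 to 0.0502 without one sample. ITGB1 was -0.00958 to 0.0498 without one sample. Beyond leaving out samples, ITGA7 lost its call with upper quartile scaling, library size alone, DESeq2, the 1 CPM filter, the threshold of 0.01, thinning and the GC and length correction. LAMA5 lost it under the first 5 of these (0.252 as adjusted p from DESeq2). LAMB2 was called higher with upper quartile scaling, library size alone, the replicate block and both GC and length corrections (0.182 with the replicate block). No cause of these shifts was tested. Over all genes tested, same-numbered samples did not deviate together (correlations 0.0137, 0.025 and -0.00724). With 3 samples per group, these values cannot settle whether cultures of the same number were handled together. Under the replicate block, 17 members were lower and 4 higher. Leaving out a replicate leaves 2 in its group. Depth limits members below 1 CPM, where the 95% intervals of log2 fold changes were the widest.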
